A study of Homo sapiens with 14 samples.

Results

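RNase H1 treatment of DNA from Nalm-6 cells, a human leukemic B cell line, was examined in the genotype SF3B1 K700K, in which this splicing factor keeps its normal lysine (WT). The members were the DRIP-seq peaks of 4 libraries on chromosomes 1 to 22 and X: 123582 and 130928 peaks from untreated DNA and 34857 and 77391 peaks from RNH1-treated DNA. They made up 366758 of the 1315747 peaks in the 8 Nalm-6 lists of the series. The lines were isogenic, and the other 4 lists came from cells with SF3B1 K700E (MT), untreated or RNH1-treated. DNA had been cut with 5 restriction enzymes, and according to Methods one part of it was digested with RNase H before precipitation with S9.6, an antibody against DNA:RNA hybrids. Peaks were compared within pairs of the same replicate number. Whether the replicates were separate cultures is not stated in the sources used here, so their spread may be technical.

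An R-loop is a stretch of double-stranded DNA in which an RNA has paired with one strand and displaced the other. R-loops form during transcription, and are known from promoters, the ends of genes and repeats. RNase H1 cuts the RNA strand of such hybrids. A DRIP signal that falls on treatment is therefore read as a hybrid, and the treated DNA serves as the negative control. An untreated peak counted as kept if at least 1 base of it was covered by the RNH1 list of its pair, and as lost if not. An RNH1 peak with no base in common with an untreated peak was called gained, and the others shared. Because the presence of a peak defines these sets, differences in peak strength between them are given as a description, with no test.

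The libraries differed in depth. The lists hold no read totals, and the lowest background pileup recovered from the peak statistics, the number of reads piled up where there is no enrichment, served as the measure. It was 2.99 and 3.13 reads in the untreated and 1.62 and 2.17 in the RNH1 libraries. By this measure, depth after treatment was 54.3% of the untreated depth in pair 1 and 69.5% in pair 2. Fragment length also enters a pileup and is not part of the lists, so these are not ratios of read totals. The weakest peaks at that background had 11 reads at the summit in both untreated libraries, and 8 and 9 in the RNH1 libraries. Fewer hybrids and fewer reads both lower the number of peaks, and beyond the values given below their parts in the loss cannot be told apart.

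The regions that held the strongest peaks of each kind differ in what their sequence looks like, so the 2 strongest of each kind are shown. Each sequence is the forward strand of GRCh38 over 240 bases around the summit, and capitals mark a cut site of the 5 enzymes.
lost in both, LNC-LBCS, chr6:19594952-19595191: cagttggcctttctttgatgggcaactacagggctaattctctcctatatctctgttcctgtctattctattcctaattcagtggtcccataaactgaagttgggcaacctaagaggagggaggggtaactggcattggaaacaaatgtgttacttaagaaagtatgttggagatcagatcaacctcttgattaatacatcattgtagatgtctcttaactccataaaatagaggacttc
lost in both, PRMT9, chr4:147680285-147680524: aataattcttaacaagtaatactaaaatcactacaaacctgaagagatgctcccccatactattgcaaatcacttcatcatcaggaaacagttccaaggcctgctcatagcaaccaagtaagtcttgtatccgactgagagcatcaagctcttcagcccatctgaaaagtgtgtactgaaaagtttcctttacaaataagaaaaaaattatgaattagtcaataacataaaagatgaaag
kept in both, ENSG00000286155 promoter window, chr21:8234383-8234622: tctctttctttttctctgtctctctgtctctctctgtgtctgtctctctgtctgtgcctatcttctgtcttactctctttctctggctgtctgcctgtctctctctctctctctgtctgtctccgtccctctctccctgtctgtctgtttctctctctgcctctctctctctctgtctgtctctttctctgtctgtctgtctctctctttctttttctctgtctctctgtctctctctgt
kept in both, intergenic, chr4:49657486-49657725: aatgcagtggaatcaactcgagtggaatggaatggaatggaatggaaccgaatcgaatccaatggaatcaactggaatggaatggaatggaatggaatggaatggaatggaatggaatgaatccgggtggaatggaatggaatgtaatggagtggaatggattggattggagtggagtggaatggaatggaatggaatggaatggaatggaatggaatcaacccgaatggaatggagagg
gained in both, intergenic, chr5:28277845-28278084: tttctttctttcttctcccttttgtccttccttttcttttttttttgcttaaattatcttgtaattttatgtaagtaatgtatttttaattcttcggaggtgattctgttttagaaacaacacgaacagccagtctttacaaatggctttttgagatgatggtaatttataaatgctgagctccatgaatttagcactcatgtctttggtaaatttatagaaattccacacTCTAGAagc
gained in both, intergenic, chr2:81116400-81116639: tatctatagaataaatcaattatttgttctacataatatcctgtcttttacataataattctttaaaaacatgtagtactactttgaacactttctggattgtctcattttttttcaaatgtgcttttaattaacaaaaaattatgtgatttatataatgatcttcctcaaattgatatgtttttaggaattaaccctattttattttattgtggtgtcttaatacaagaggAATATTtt
In both lost regions the sequence is of mixed composition. One kept region is a pyrimidine-rich run of CT repeats on chromosome 21, and the other is an array of the 5-base satellite unit GGAAT on chromosome 4. In both gained regions a cut site, one of XbaI and one of SspI, lies at the right edge of the region. The windows of the lost and kept regions reach neither edge, so a site there would not be seen. Cut sites at edges do not mark gained peaks. Over all peaks, gained ones had the smallest share of edges within 50 bp of a site, 30.6% and 28.2%.

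In pair 1, 101269 of 123582 untreated peaks were lost, or 81.9%, and 22313 were kept. In pair 2, 86153 of 130928 were lost, or 65.8%, and 44775 were kept. The mean loss was 73.9% ± 11.4 (SD, n = 2 pairs). The lost peaks covered 51.0 and 41.8 Mb and the kept peaks 14.6 and 29.2 Mb. Peaks also appeared: 12390 of 34857 RNH1 peaks, or 35.5%, were gained in pair 1, and 32607 of 77391, or 42.1%, in pair 2, a mean of 38.8% ± 4.66 (SD, n = 2 pairs). Over all peaks, the RNH1 lists were 0.282 and 0.591 times as long as the untreated lists. The mean log2 ratio was -1.29 (SD of the pairs 0.755; exact permutation of the labels, two-sided p = 0.33, and no lower p is possible with 2 libraries a group). Both RNH1 lists were shorter than both untreated lists, but an exact permutation test of 2 against 2 cannot pass 0.05.

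The loss was also read among peaks that the lower depth would have spared. Had pileup and background fallen only in proportion to depth, 75.2% of the untreated peaks of pair 1 and 93.9% of those of pair 2 would still have passed the weakest p-value of the RNH1 list. Of these, 72488 and 79171 peaks were lost, or 64.4% in pair 2 and 77.96% in pair 1. Of the remaining peaks, which depth alone would have taken below that threshold, 94.0% and 87.3% were lost. With every list thinned to the background of the shallowest library, the percentages lost were 79.8% and 63.1%. These values treat each pileup as scaling exactly with depth and do not include the counting error of the reads.

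The boundary of the rule touched few peaks. Among the kept peaks, 206 and 449 shared fewer than 50 bases with an RNH1 peak, or 0.923% and 1.00% of them. Among the lost peaks, 68 and 175 lay within 50 bp of an RNH1 peak, and 2.67% and 6.32% within 1000 bp. The median gap from a lost peak to the nearest RNH1 peak was 25.9 kb in pair 1 and 11.5 kb in pair 2.

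How many peaks 2 libraries shared was read in both directions. Of the peaks of RNH1 library 1, 82.9% had a peak in RNH1 library 2, 64.5% in untreated library 1 and 69.3% in untreated library 2. Of the peaks of untreated library 1, 71.1% had a peak in untreated library 2, 33.6% in RNH1 library 2 and 18.1% in RNH1 library 1. For these libraries the largest share was with the other library of their treatment. Of the peaks of RNH1 library 2, however, 57.9% had a peak in untreated library 2 and 53.5% in untreated library 1, and 36.7% in the much shorter list of RNH1 library 1. A longer list offers more peaks to overlap, and the part of list length in these shares was not tested.

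Merging the peaks of the 4 lists gave 196754 regions. Both untreated lists held a peak in 86454 of them. Of these, 48113 had no peak in either RNH1 list, or 55.7%, and are called lost in both. A further 19374, or 22.4%, had a peak in all 4 lists and are called kept in both. Both RNH1 lists held a peak in 28380 regions, and 5268 of these, or 18.6%, had none in either untreated list and are called gained in both. Another 17547 regions were held by both untreated lists and by RNH1 library 2 but not by the shallower RNH1 library 1, while the reverse pattern, with RNH1 library 1 and without RNH1 library 2, was found in 1420. Regions held by a single library numbered 30956 and 35235 for untreated libraries 1 and 2, and 3538 and 22860 for RNH1 libraries 1 and 2.

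**Figure D1:**
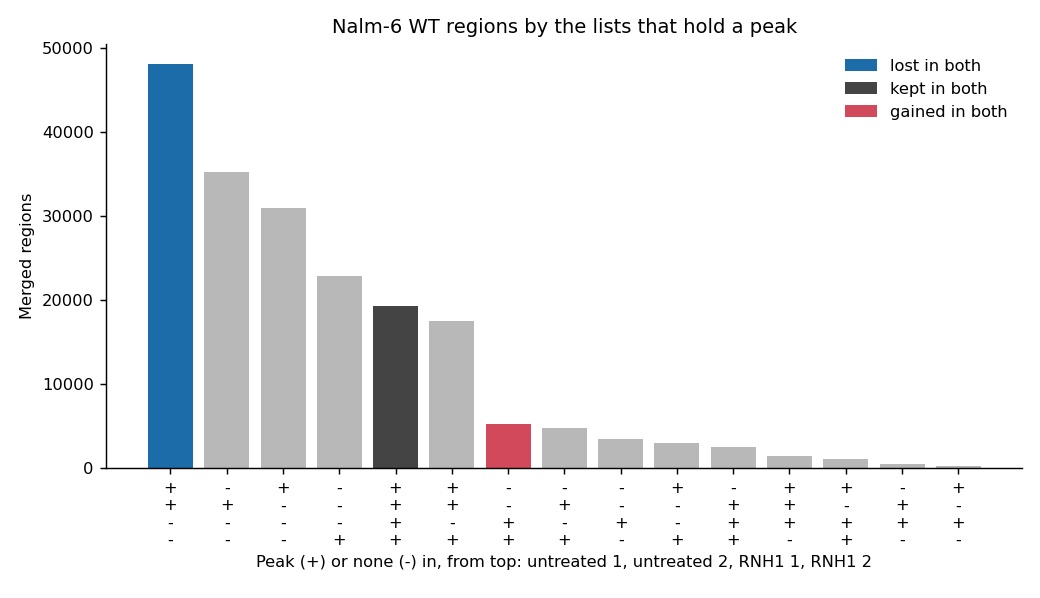
Number of merged Nalm-6 WT regions for each combination of the 4 lists that hold a peak (+) or none (-). The tallest bar, 48113 regions, is the pattern lost in both, followed by regions held by untreated library 2 alone (35235) and untreated library 1 alone (30956).

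Short peaks were lost most often. The median length of lost peaks was 420 and 407 bp and that of kept peaks 558 bp in both pairs, a difference of 144.5 ± 9.19 bp (SD, n = 2 pairs). Among peaks under 300 bp, 91.2% and 81.8% were lost. Among peaks of 500 to under 1000 bp it was 76.6% and 57.1%. Among those of 2000 bp or more it was 68 of 177 peaks in pair 1 and 27 of 246 in pair 2, or 38.4% and 10.98%. The loss fell from each length class to the next longer one in both pairs. The order was the same among peaks that depth alone would have left above the threshold, with 87.5% and 80.7% lost under 300 bp. Gained peaks were short too, with medians of 328 and 377 bp against 422 and 498 bp for shared RNH1 peaks.

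Strong peaks were lost least often. Strength was read as the fold enrichment at the summit, the ratio of the pileup to the local background with 1 added to each. Of untreated peaks at 3 to under 4 fold, 92.2% and 80.4% were lost. Of those at 6 to under 8 fold, 65.9% and 44.5% were lost. At 15 fold or more, 3 of 57 peaks were lost in pair 1 and 3 of 102 in pair 2. Within classes of fold enrichment, short peaks were again lost most often. At 6 fold or more, 74.5% and 63.3% of peaks under 300 bp were lost, against 47.1% and 22.5% of those of 1000 to under 2000 bp. Among the few peaks of 2000 bp or more in pair 2, the loss did not follow strength, at 6.25% of 16 peaks under 4 fold, 15.7% of 134 at 4 to under 6 fold and 5.21% of 96 at 6 fold or more. Gained peaks followed strength in the same direction: of RNH1 peaks at 3 to under 4 fold 54.8% and 62.5% were gained, and of those at 15 fold or more 12.3% and 8.53%, or 40 and 39 peaks.

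**Figure D2:**
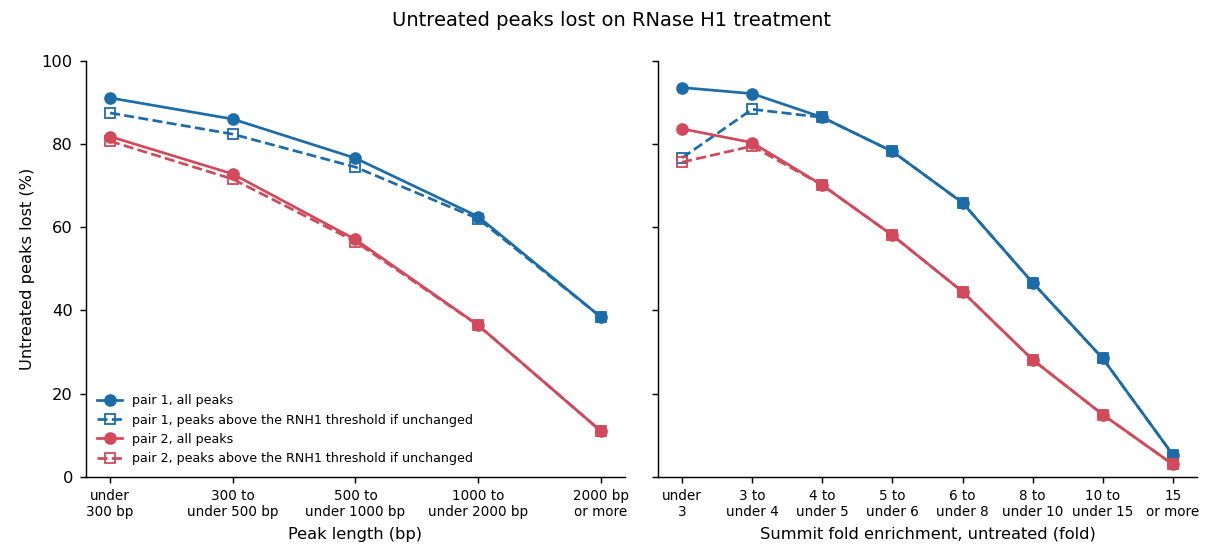
Percent of untreated peaks lost (y axis) by peak length in bp (left) and by summit fold enrichment in the untreated library (right). Filled circles are all peaks and open squares the peaks that depth alone would have left above the RNH1 threshold, with blue for pair 1 and red for pair 2. Loss of all peaks fell with length from 91.2% to 38.4% in pair 1 and from 81.8% to 10.98% in pair 2, and with fold enrichment from 93.6% to 5.26% and from 83.7% to 2.94%.

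Kept peaks did not fall in strength as a group. Their median fold enrichment was 5.62 and 5.24 in the untreated libraries and 5.53 and 5.30 in the overlapping RNH1 peaks, and the median log2 change was 0.04 and 0.05, a mean of 0.05 ± 0.009 (SD, n = 2 pairs). By class of starting level the medians lay on either side of 0. Kept peaks under 4 fold had a median change of 0.46 and 0.35 log2, and those of 10 fold or more one of -0.39 and -0.24. A kept peak had to pass the RNH1 threshold, at which the lowest fold enrichment over the genome background was 3.43 and 3.15. Weak kept peaks were therefore mostly those that measured high after treatment. Of those under 4 fold, 5.37% and 13.7% were lower after it. The untreated value that sets the class is also the denominator of the ratio, so high classes tend to low ratios through measurement error alone, and these medians by class do not measure an effect of treatment. Among untreated peaks of 10 fold or more, 72.3% and 67.6% of those kept were lower after treatment. Summit pileup relative to the background of the whole library, in place of the local background, changed by -0.44 and -0.30 log2 in that class, and by 0.21 and 0.16 log2 over all kept peaks. The highest class nevertheless held more peaks after treatment, with 325 and 457 RNH1 peaks of 15 fold or more against 57 and 102 untreated peaks.

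**Figure D3:**
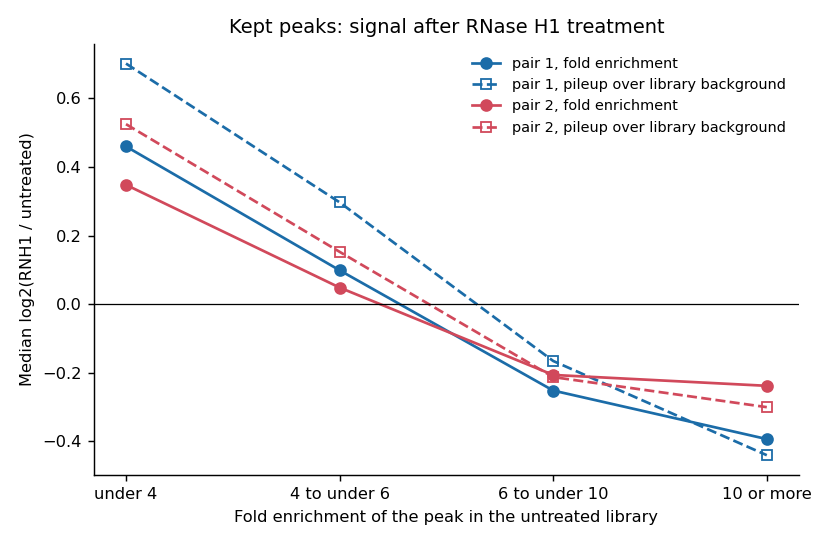
Median log2 ratio of RNH1 over untreated signal in kept peaks (y axis) by fold enrichment of the peak in the untreated library (x axis), as fold enrichment (filled circles) and as summit pileup over the background of the whole library (open squares), for pair 1 (blue) and pair 2 (red). All 4 lines run from above 0 in peaks under 4 fold, at 0.35 to 0.70, to below 0 in peaks of 10 fold or more, at -0.24 to -0.44.

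The 19374 regions kept in both showed no common direction either. The fold enrichment of both RNH1 libraries lay below that of both untreated libraries in 4593 of them, or 23.7%, and above in 7122, or 36.8%, and the groups overlapped in 7659. Their median fold enrichment was 5.84 and 6.21 in the untreated and 5.72 and 6.81 in the RNH1 libraries. RNH1 library 2 was the highest of the 4 in 45.4% of the regions. The levels of the RNH1 libraries thus lay on either side of those of the untreated libraries. Only regions with a peak in both RNH1 lists are included here, so those that fell below the RNH1 threshold are missing. Directions among the regions that remained do not measure an effect of treatment.

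GC content marked the gained peaks more than the lost ones. Median GC content was 37.1% and 37.6% in lost peaks and 36.7% and 37.3% in kept peaks, so lost peaks were higher by 0.379 ± 0.0549 percentage points (SD, n = 2 pairs). Gained peaks had median GC contents of 40.4% and 41.6%, against 37.1% and 37.7% for shared RNH1 peaks. Of RNH1 peaks with 25 to under 30% GC, 24.2% and 25% were gained, and of those with 55 to under 60% GC, 75.7% and 78.4%. In pair 2, the RNH1 library held more peaks than the untreated library above 50% GC, with ratios of 1.11 at 50 to under 55%, 1.17 at 55 to under 60% and 1.30 at 60% or more, while at 30 to under 35% its ratio was 0.463. In pair 1 the ratio rose over the same classes from 0.241 to 0.655 and stayed below 1. The genome as a whole has 40.9% GC.

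**Figure D4:**
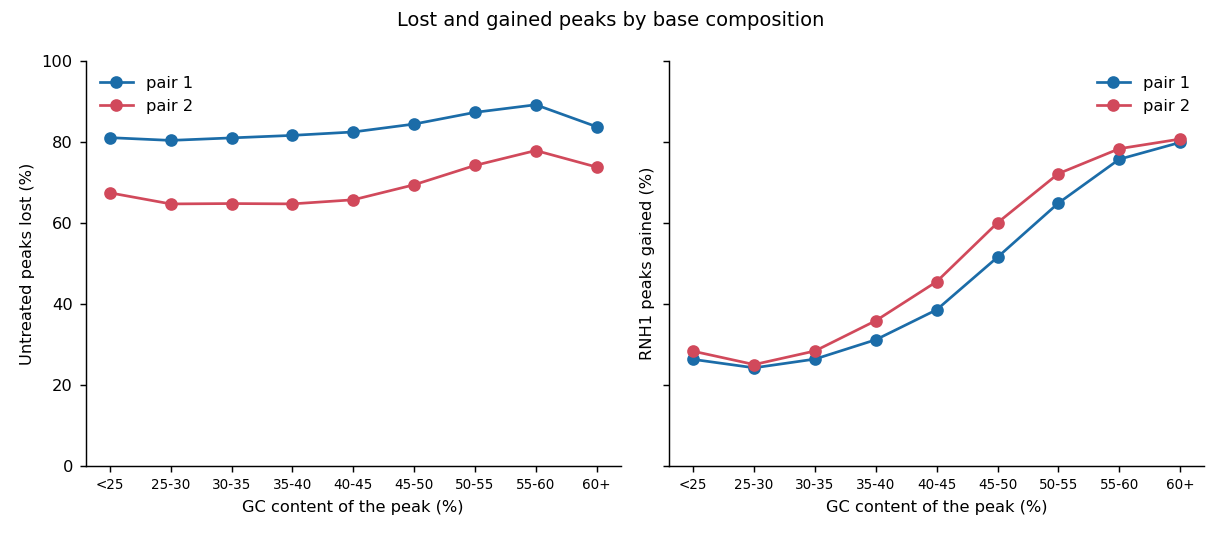
Percent of untreated peaks lost (left) and percent of RNH1 peaks gained (right) by GC content of the peak in percent, for pair 1 (blue) and pair 2 (red). The share gained rises from 24.2% and 25% at 25 to under 30% GC to 79.9% and 80.7% at 60% or more, whereas the share lost stays between 80.4% and 89.2% in pair 1 and between 64.7% and 77.9% in pair 2.

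Gene classes differed little in loss. Each peak was given the first class it touched, starting with promoters, which reach 3 kb up and down from a start site, then untranslated regions (5' before 3'), other exons, introns, the 300 bp after a gene, and intergenic DNA. A start site is that of any annotated transcript, so a promoter window can lie inside a gene, far from its main start. Introns held 45.6% of the peaks of both untreated libraries, intergenic regions 35.7% and 35.6%, and promoters 14.9% and 15.2%. By bases, introns make up 44.3%, intergenic regions 35.6% and promoters 17.7% of the chromosomes by the same order. Loss in promoters was 83.4% and 68.3% and in intergenic regions 81.0% and 64.5%, a difference of 3.13 ± 1.02 percentage points (SD, n = 2 pairs) in which promoters were higher in both pairs. The class with the highest loss was the 5' UTR, with 156 of 175 and 132 of 179 peaks lost, or 89.1% and 73.7%, followed in pair 2 by the 3' UTR at 72.7%, whose loss in pair 1 was 86.2%. Introns lost 82.0% and 65.6%, and exons 83.1% and 68.6%.

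The difference between promoters and intergenic regions was present at low GC and small at high GC. Among peaks under 35% GC, promoters lost 83.0% and 68.6% and intergenic regions 79.5% and 63.0%. Among peaks of 45% GC or more they lost 85.5% and 71.6% against 85.0% and 69.9%. Gains also differed by class, at 39.6% and 46.9% of RNH1 peaks in promoters against 35.2% and 41.0% in intergenic regions, but among RNH1 peaks of 45% GC or more the shares were 58.9% and 65.9% against 58.3% and 64.9%.

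By type of gene, peaks in protein-coding genes were lost in 82.9% and 67.2% of cases, those in lncRNA genes, which make long RNAs without a protein, in 81.6% and 64.8%, and those in no gene in 81.1% and 64.7%. Pseudogenes, inactive copies of genes, lost 770 of 954 and 668 of 1021 peaks, or 80.7% and 65.4%. The range over these 4 types was narrower than the difference between the pairs. Among regions lost in both, 44.2% lay in protein-coding genes and 38.1% in no gene. Among those kept in both the shares were 41.6% and 40.3%, and among those gained in both 41.5% and 41.8%.

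Chromosomes lost similar shares of their peaks. In pair 1 the loss ranged from 78.7% on chromosome 19 to 83.2% on chromosome 20, and in pair 2 from 64.2% on chromosome 7 to 68.4% on chromosome 19. Chromosome 19, the most gene-dense, was thus lowest in one pair and highest in the other, at -3.28 and 2.58 percentage points from the loss over all chromosomes (mean -0.348 ± 4.15, SD, n = 2 pairs). With peaks held to a −log10 q of 5 or more, pair 2 turned to -1.61. The gained share varied more. It was highest on chromosome 19, at 53.6% and 63.5% of RNH1 peaks, and lowest on chromosome 4 in pair 1, at 31.9%, and on chromosome 13 in pair 2, at 36.3%. Over the 23 chromosomes the gained share rose with GC content (Pearson r = 0.841 and 0.946, Spearman rho = 0.785 and 0.863). The chromosomes of a pair come from the same libraries, so no p is given. Chromosome X, at 39.5% GC, had 46.3% and 46.9% gained, above every other chromosome under 43% GC, and the lowest density, with 14.4 and 16.1 untreated peaks per Mb against 44.5 and 47.4 on chromosome 1.

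**Figure D5:**
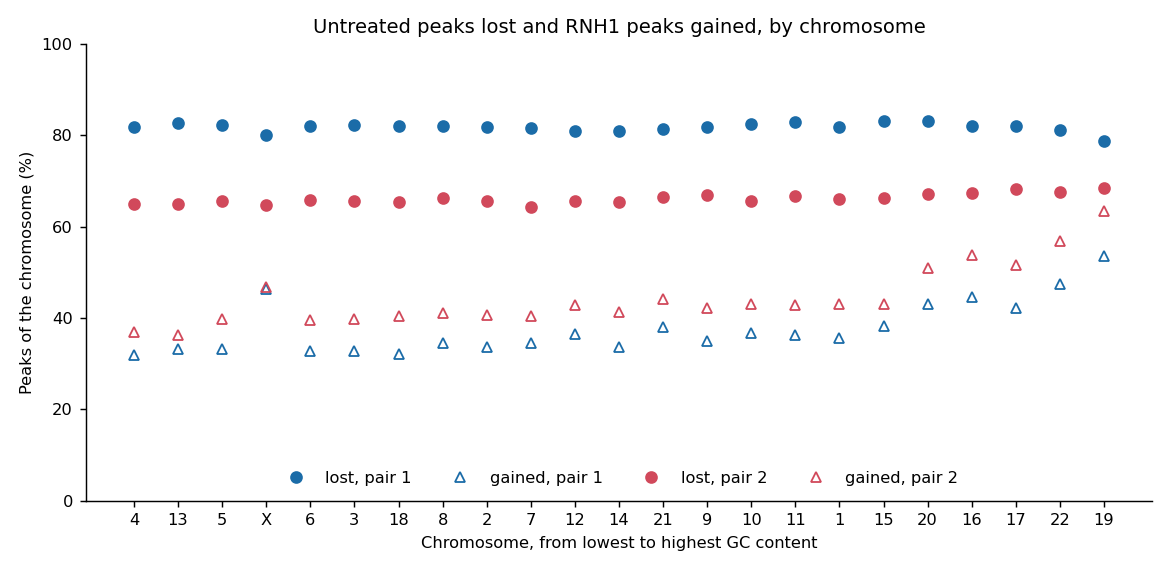
Percent of untreated peaks lost (filled circles) and of RNH1 peaks gained (open triangles) on each chromosome, from lowest to highest GC content, for pair 1 (blue) and pair 2 (red). Loss stays between 78.7% and 83.2% in pair 1 and between 64.2% and 68.4% in pair 2, while the gained share reaches 53.6% and 63.5% on chromosome 19.

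Peak edges lay near cut sites of the enzymes more often than bases of the genome did, although most edges did not. The 5 enzymes have 5720928 sites in these chromosomes, 1.97 per kb, of which 2356165 are SspI sites. Peaks held fewer, 0.964 and 0.994 per kb in lost and 0.999 and 0.920 per kb in kept peaks. Of all bases, 17.6% lie within 50 bp of a site. Of the edges of kept peaks 41.1% and 37.8% did, of lost peaks 32.1% and 31.7%, and of gained peaks 30.6% and 28.2%, whereas of their summits 7.13% and 7.19%, 8.12% and 8.35%, and 11.2% and 9.89% did. Both edges lay within 5 bp of a site in 9.26% and 8.09% of kept, 4.16% and 4.24% of lost and 1.41% and 1.54% of gained peaks. Among untreated peaks of 500 bp or more, those with both edges at sites were lost in 65.8% and 46.5% of cases and the others in 75.1% and 53.9%.

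A peak with both edges at cut sites lay in an intron of DDX10, which codes for a DEAD-box RNA helicase. Of the 12 products that the study designed for DRIP-qPCR in Nalm-6, 9 matched the genome once, and the DDX10 product was the only one inside a peak of any WT list. The peak ran over the same 791 bases, chr11:108687707-108688497, in both untreated libraries. Its fold enrichment was 9.42 and 10.1, with 79 and 111 reads at the summit over local backgrounds of 7.49 and 10.1. Neither RNH1 list held a peak within 1 kb of the product. Both edges lay exactly at SspI sites, which are capitalised in the 60 bases shown around each edge, and the 71 bases of the product lie between them.
DDX10 left edge, chr11:108687677-108687736: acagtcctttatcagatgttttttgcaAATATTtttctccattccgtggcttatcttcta
DDX10 qPCR product, chr11:108687860-108687930: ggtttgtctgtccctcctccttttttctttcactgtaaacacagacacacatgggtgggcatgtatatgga
DDX10 right edge, chr11:108688468-108688527: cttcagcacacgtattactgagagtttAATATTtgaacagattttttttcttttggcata
At the product of SLC9A5, untreated library 2 had a peak of 3.54 fold within 1 kb and no other WT list did. At those of ING3 and LOC440704, RNH1 library 2 alone had one, of 4.02 and 3.78 fold. At BTBD19, EGR1, NOP58, SNRPN and ZNF90 no WT list had a peak within 1 kb.

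The strongest regions lost in both reached a mean of 15.5 fold. The first was an intron of the lncRNA LNC-LBCS at chr6:19594773-19595447, with 14.8 and 16.1 fold in the untreated libraries and no RNH1 peak. An exon of PRMT9, an arginine methyltransferase, at chr4:147680164-147680671 had 16.6 and 14.3 fold. An intron of PPP1R16B, a phosphatase subunit, at chr20:38854596-38855557 had 14.3 and 13.6 fold. The other 3 lay in an intron and a promoter window of lncRNA genes on chromosomes 8 and 4 and between genes on chromosome 10, at 13.4 to 15.3 fold. Strong lost regions were few: of 2182 regions with a mean of 10 fold or more in both untreated lists, 240 had no RNH1 peak, or 11%, and 1615 had a peak in both RNH1 lists, or 74.0%.

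Among protein-coding promoter regions lost in both, of which there were 4079, the strongest was that of SPIDR, a scaffold of homologous recombination, with 12.4 and 13.8 fold. DNAJC21, a co-chaperone of ribosome assembly, had 12.1 and 13.7 fold. THAP12 had 12.6 and 12.1 fold, and PIP5K1B, a phosphoinositide kinase, 11.5 and 12.6 fold. MYBL1, a transcription factor of the MYB family, had 12.2 and 11.5 fold, and HEATR1, a factor of ribosomal RNA transcription and processing, 11.7 and 11.6 fold. By the definition of the set, none of these 6 regions held a peak in either RNH1 library. The start site of such a region can be that of any transcript. Its distance from the main start of the gene was not measured. The protein-coding genes with the most regions lost in both were PTPRD (59), EYS (57), DLG2 (56), PCDH15 (51), MACROD2 (46) and CNTNAP2 (45). All 6 are among the longest human genes, at 1825 to 2305 kb. They held 1.95 to 2.87 lost regions per 100 kb, against 1.65 over the genome, and also 16 to 23 regions each that were kept in both. Over the genome, 48113 regions were lost and 19374 kept in both. Whether these genes lost a larger share of their regions than others was not tested.

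Of the 6 strongest regions kept in both, 5 lay between genes. The first, chr21:8234123-8234831, in the promoter window of a gene model of unknown type, had 26.2 and 28.9 fold in the untreated and 34.98 and 29.2 fold in the RNH1 libraries. The next, chr4:49655777-49657865, had 25.8, 27.5, 26.8 and 24.6 fold in the same order. Regions on chromosome 5 (23.8, 25.2, 28.4 and 24.3 fold) and chromosome 16 (24.2, 24.8, 25.4 and 21.7 fold, and 20.2, 21.1, 22.5 and 18.9 fold) followed, and the groups overlapped in the regions of chromosomes 4, 5 and 16. A region of 438 bases on chromosome 3 had 9.77 and 22.7 fold in the untreated and 27.3 and 23.5 fold in the RNH1 libraries. Reads from repeated sequence can be placed at several copies, so the level of one copy is uncertain.

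Of the 1400 protein-coding promoter regions kept in both, the strongest was at SLC30A8, a zinc transporter of pancreatic beta cells, with 16.4 and 18.4 fold in the untreated and 19.2 and 22.8 fold in the RNH1 libraries. DDHD1, a phospholipase, had 16.4 and 17.5 fold before and 14.2 and 16.1 fold after treatment, and in this one the treated values were the lower. OR4K13, an olfactory receptor gene, went from 12.9 and 9.79 to 20.2 and 18.6 fold. RHOBTB1 had 12.7 and 13.7 against 17.3 and 17.03 fold, LRRN3 12.4 and 12.2 against 18.8 and 16.96 fold, and DOCK8, an exchange factor for small GTPases in lymphocytes, 13.03 and 14.02 against 16.4 and 15.8 fold. In 5 of the 6 the fold enrichment was higher in both RNH1 libraries than in both untreated libraries. The same held for 7122 of all 19374 regions kept in both, or 36.8%. The 6 promoter regions were chosen as the highest means over all 4 lists, RNH1 values included, which favours regions high after treatment. Here too, the start site can be that of any transcript of the gene.

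Regions gained in both reached a mean of 24.8 fold. The first, chr5:28277731-28278080, had 25.8 and 23.9 fold in the RNH1 libraries and no untreated peak. The second, chr2:81116310-81116634, had 24.9 and 24.4 fold. Among the first 6, one lay in an intron of ELAPOR2, with 17.4 and 21.1 fold, and the other 5 between genes. Of the 421 protein-coding promoter regions gained in both, that of GPNMB, a transmembrane glycoprotein, was the strongest with 15.3 fold in both RNH1 libraries. CCDC196 followed with 10.1 and 13.3 fold, and DDX1, an RNA helicase, with 10.6 and 11.3 fold. KLRB1, a receptor of natural killer cells, had 10.1 and 11.6 fold, OR4K1, an olfactory receptor gene, 7.80 and 12.9 fold, and SMR3A 9.16 and 11.6 fold. Of 2570 regions with a mean of 10 fold or more in both RNH1 lists, 159 had no untreated peak, or 6.19%.

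Simple repeats at the summit were rare in every set. Each peak was searched over a window of 240 bases centred on its summit. There, 2 consecutive copies of GGAAT on either strand stood in 0.417% and 0.252% of kept and 0.113% and 0.114% of lost peaks. They stood in 0.452% and 0.276% of gained peaks, against 0.138% of all windows of that length. Of the kept peaks at 15 fold or more, 5 of 54 and 5 of 99 held these 2 copies of GGAAT. Likewise, 6 copies of CT stood in 0.704% and 0.755% of kept, 0.448% and 0.474% of lost and 1.11% and 0.938% of gained peaks, against 0.469% of all windows. For 6 copies of CA the shares were 0.874% and 1.04% of kept, 0.853% and 0.961% of lost and 1.24% of gained peaks in both pairs, against 1.13% of all windows. Runs of 12 A stood in 3.38% and 3.26% of kept, 2.49% and 2.53% of lost and 4.50% and 4.91% of gained peaks, and in 5.24% of all windows. In both pairs and for these 4 words, counted on both strands and chosen after values were seen, the share was lowest in lost and highest in gained peaks.

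Genes were followed by peaks within 3 kb of a start site. Of 19970 protein-coding genes, 5398 had such a peak in both untreated lists, or 27.0%, and 42.5% had one in at least 1 of them. No RNH1 peak remained in either list for 2115 of these, or 39.2%, and both RNH1 lists had one for 1608, or 29.8%. Neighbouring genes can share a window and with it a peak, and peaks are no measure of expression. The values of a gene come from peaks anywhere in its windows and were not matched by position. Its untreated and RNH1 values can therefore belong to different peaks.

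Of 79 genes for cytosolic ribosomal proteins, among the most highly transcribed genes of any cell, 10 had a peak in at least one untreated list and 4 in both, or 12.7% and 5.06%, against 42.5% and 27.0% of all protein-coding genes. Of the 4, RPS9 (4.08 and 4.07 fold) and RPL19 (3.14 and 3.75 fold) had no RNH1 peak. RPL37A (6.52 and 6.37 fold) and RPL4 (4.23 and 5.02 fold) had one in RNH1 library 2 alone, of 5.94 and 5.17 fold. None had one in both. Of 66 replication-dependent histone genes, which make histones in S phase, 11 had an untreated peak and 3 had one in both lists, or 16.7% and 4.55%. These were H4C5 (4.26 and 3.35 fold), H2AC16 (3.51 and 3.88 fold) and H2BC3 (3.75 and 3.39 fold), and none of them had an RNH1 peak. H1-5 shared one peak of 4.36 fold in untreated library 2 with neighbouring genes. The counts of 2 of 4 and 3 of 3 are too small to set apart from the 39.2% of all genes.

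Of 30 B-lineage genes, 15 had a peak in an untreated list, 9 of them in both. Of these 9 genes, 5 had a peak in both RNH1 lists and 2 had none in either. These are 55.6% and 22.2% of 9 genes, against 29.8% and 39.2% of all protein-coding genes with a peak in both untreated lists, and 30% of the list had such a peak against 27.0% of all. BLNK, an adaptor of the B cell receptor, had 7.56 and 8.85 fold in the untreated and 7.43 and 8.36 fold in the RNH1 libraries, with overlapping groups. ERG, a transcription factor, had 7.17 and 7.81 fold and only one RNH1 peak, of 4.71 fold in library 2. LEF1 had 5.92 and 6.11 fold against 4.54 and 8.50 fold. BLK, a kinase of the same receptor pathway, had 5.67 and 5.95 fold and one RNH1 peak, of 3.78 fold in library 2. Others are named after their values were seen, and differed in both directions. EBF1, a transcription factor of early B cells, had 4.46 and 3.99 fold in the untreated and 3.31 and 3.15 fold in the RNH1 libraries. RAG1, a recombinase of antigen receptor genes, had 3.63 and 3.78 fold and POU2AF1, a transcriptional coactivator of B cells, 3.73 and 2.98 fold, with no RNH1 peak at either. CD22, an inhibitory receptor of B cells, had 3.60 and 3.22 fold in the untreated and 7.44 and 8.98 fold in the RNH1 libraries. MME (CD10), a marker of B cell precursors, had 3.57 and 3.24 against 6.65 and 6.36 fold. BTK, a kinase required for B cell development, had one untreated peak of 5.58 fold in library 2 and RNH1 peaks of 9.53 and 11.4 fold. PAX5, a master regulator of the B lineage, had peaks of 3.77 and 4.11 fold in the RNH1 libraries alone.

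Of 28 genes of other lineages, 9 had an untreated peak, 5 of them in both lists. ALB, the gene of serum albumin, had 6.72 and 5.82 fold and no RNH1 peak. HBB, the gene of beta globin, had 5.18 and 6.02 fold and one RNH1 peak of 3.87 fold, in library 2. CD3D and CD3G, which code for subunits of the T cell receptor complex, share one peak, with 4.89 and 5.32 fold and 5.55 fold in RNH1 library 2. ITGAM, a myeloid integrin named after its values were seen, had 5.29 and 3.78 fold in the untreated and 11.4 and 8.96 fold in the RNH1 libraries. Untreated peaks were found at 50.0% of the B-lineage genes, 32.1% of those of other lineages and 42.5% of all protein-coding genes. Peaks at B-lineage genes therefore do not check the label of the cells.

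Of 19 genes for non-coding RNAs and snoRNA hosts, SNHG5, a host gene of snoRNAs, had 5.24 and 5.80 fold and no RNH1 peak. MALAT1, an abundant nuclear lncRNA, had 3.46 and 3.43 fold before and 6.53 and 4.47 fold after treatment. RN7SK had a peak of 4.06 fold in untreated library 2 and 4.57 fold in RNH1 library 2, and RN7SL2 one of 3.53 fold in untreated library 2 and of 5.08 and 5.16 fold in the RNH1 libraries. Of 17 genes known from work on R-loops, VIM (3.84 and 3.78 fold) had no RNH1 peak, and MYC had one peak, of 2.81 fold in untreated library 2. BCL6 had 5.52 and 6.89 fold in the untreated and 4.64 and 4.50 fold in the RNH1 libraries, below both untreated values. CALM3 had 4.01 fold in untreated library 1 and 6.73 and 5.77 fold in the RNH1 libraries. FMR1 had peaks of 5.34 and 4.097 fold in the RNH1 libraries alone, and ING3 and NOP58 of 4.73 and 4.14 fold in RNH1 library 2. ACTB, AIRE, APOE, BTBD19, EGR1, GADD45A, RPL13A, SNRPN and TFPT had no peak within 3 kb of a start site in any of the 4 lists. A locus without a peak did not pass the threshold of these lists, which does not show that it holds no hybrid. Why these loci had no peak was not tested.

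Loss was compared with that in MT cells. MT libraries lost 49.1% and 51.2% of their untreated peaks, against 81.9% and 65.8% in WT, a difference of 23.7 percentage points (means 73.9% ± 11.4 and 50.1% ± 1.5, SD, n = 2 pairs each; exact permutation of the labels, two-sided p = 0.33, again the lowest possible). Both WT pairs lay above both MT pairs. The MT lists were longer, with 253744 and 295970 untreated and 201117 and 198158 RNH1 peaks. In WT there were 123582 and 130928 untreated and 34857 and 77391 RNH1 peaks. A longer RNH1 list offers more peaks to overlap, and its part in the difference was not tested. A lower percentage lost is not a smaller number of lost peaks. The MT libraries were deeper, with backgrounds of 3.51 and 4.35 untreated and 2.76 and 2.55 after treatment, and with all 8 lists thinned to the shallowest WT library WT still lost 79.8% and 63.1%, and MT 46.4% and 46.9%. Among untreated peaks of 10 fold or more, WT lost 27.8% and 14.5% and MT 10.7% and 10.3%.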

How the data were processed

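DRIP-seq of Nalm-6 WT cells comprised 2 untreated and 2 RNH1-treated libraries, grouped by the labels. According to Methods, the authors used BWA-MEM and GRCh38 for alignment, dropped duplicates and mitochondrial DNA, and ran MACS2 in narrow mode, and R-loop peaks were called over the RNaseH1-treated samples. The lists used here are separate for the 4 libraries, treated ones included. Deposited were the fold enrichment at the summit, a ratio, with −log10 p-values and q-values and a whole-number score. Methods state a q of 0.05, but every deposited list stops at a −log10 q of 2, a q of 0.01. Reads and read totals are not part of the lists, so depth is known only through the background pileup recovered here from fold enrichment and −log10 p (100% of untreated and 99.98% and 99.99% of RNH1 peaks recovered to 0.001), and values carry counting error that cannot be given. Peaks off chromosomes 1 to 22 and X were left out, 234 to 334 per WT list.

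A peak counted as shared when it had 1 base or more in common with the other list. Classes used 251784 GENCODE 44 transcripts, and GC content and cut sites the GRCh38 sequence. Values are given per pair with mean and SD. Exact permutation tests of 2 against 2 cannot go below p = 0.33, and sign-flip tests of 2 pairs not below 0.5. The overlap, sign and recovery steps were tested on simulated data. Python 3.11.15, numpy 2.4.6, pandas 2.3.3, scipy 1.17.1 and pysam 0.24.0 were used.

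Named were the 6 strongest regions lost, kept and gained in both pairs and the 6 strongest of these at protein-coding promoters, up to 4 genes per list with every gene of the R-loop list except 1 that is not reported here, the Nalm-6 DRIP-qPCR products matched by primer sequence, and the 6 protein-coding genes with the most lost regions. The members and gene lists were chosen with earlier results of these data known. Alternatives were another overlap, stricter peaks, unions of lists, thinning to equal background pileup and leaving out a replicate. A list of splicing events from HEK293T cells was not used here.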

Additional observations from a re-analysis of the deposited data

Results flagged for a closer look

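Base composition moved in opposite directions in the genotypes on treatment. In WT cells, median GC content of the RNH1 peaks was above that of the untreated peaks by 1.10 and 1.68 percentage points, and in MT cells the difference was -0.999 and -0.63, so the genotypes differed by 2.20 (exact permutation of the labels, two-sided p = 0.33, the lowest possible with 2 pairs a genotype). Gained peaks were above shared RNH1 peaks by 3.28 and 3.97 percentage points in WT, and in MT the difference was -0.875 and -0.551, so here the genotypes differed by 4.34 (same exact test, p = 0.33). Untreated peaks of MT already had the higher median GC content, 41.6% and 41.1% against 37.0% and 37.5% in WT, and the part of that starting level in the difference was not tested.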

How the results depend on the processing

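Of 83 values recomputed under an alternative, 59 were counted as unchanged and 24 as moved. Counts of regions were judged by a change of 1.5 times. The ratio of peak counts and the loss in WT against MT were judged by their sign alone. All other values were judged by the spread between the pairs. Some of the 59 were fixed in advance. For values given per pair, leaving out 1 of 2 pairs must move the mean by less than their SD. The sign-flip test repeats the main value. These outcomes do not measure stability. The loss on chromosome 19 relative to all chromosomes, -0.348 percentage points, changed sign with unions of lists (0.487) and without replicate 1 (2.58). With unions of both lists, 31.2% of RNH1 peaks were gained. The length difference was 84.5 bp with 50% of the peak covered, 121.5 bp at 4 fold or more, 118 bp at a −log10 q of 5 or more and 132.5 bp among peaks above the RNH1 threshold if unchanged, an alternative chosen after seeing the data. The GC difference in the same order was 0.442, 0.196, 0.224 and 0.206, and 0.213 with thinning and 0.262 with unions. The log2 change of kept peaks was 0.09 (0.0892) with 50% covered, 0.0095 (0.00945) at 4 fold or more, 0.10 (0.104) at the stricter q, 0.15 (0.151) with thinning, 0.08 (0.0806) with unions and 0.18 (0.183) as pileup over local background without the added 1, also chosen after seeing the data. At 4 fold or more, 30358 regions were lost in both, and with 50% of the region covered 12890 were kept in both. With one pair left out, 86153 to 101269 regions were lost, 22135 to 44231 kept and 12390 to 32607 gained. Unions leave the region counts as they are by construction.

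The log2 ratio of peak counts was -1.29 also with the replicate number as a block (exact sign-flip test, p = 0.5, the smallest p of 2 pairs), and -1.83 to -0.76 with one pair left out. The study describes treated and untreated samples as paired, and both came from one digest, but neither the labels nor Methods say that the numbers mark the pairs. In the 19374 regions in all 4 lists, deviations of same-numbered libraries had a correlation of 0.0154. Depth limits weak peaks most: in pair 1, 75.2% of untreated peaks would have stayed above the RNH1 threshold with depth alone changed.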
